A study of Mus musculus with 6 samples.

Results

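The genes described here are 33 genes of cholesterol and fatty acid synthesis and of their control, taken from the table by gene symbol. The rule used no measured values, but the list of members was chosen with earlier results of these data known. They are 18 enzymes on the path from acetyl-CoA to cholesterol, 6 regulators and sterol carriers, 3 genes of sterol efflux or lipoprotein receptor degradation and 6 enzymes of fatty acid synthesis. All 33 were found among the 27179 genes of the table, each as a single row. Messenger RNA was sequenced from cultured primary mouse aortic smooth muscle cells, which give the vessel wall its tone, with 3 libraries labelled WT and 3 labelled Bmal1 KO. Bmal1 (listed as Arntl) encodes the partner of CLOCK in the circadian transcription factor. Every culture of both groups had spent 7 days in what the labels call diabetic condition medium, which carried glucose at 4.5 g/L and hydrogen peroxide at 0.3 mM. The labels do not state the deleted exons, whether the deletion was made in the whole animal or by a tissue-specific Cre, or the strain, age and sex of the mice. Nor do they tie each replicate to its own animal or culture. The p-values therefore measure only the spread among these libraries, which may be technical.

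Cells make cholesterol from acetyl-CoA through mevalonate, farnesyl pyrophosphate, squalene and lanosterol. The transcription factors SREBP-1 and SREBP-2, encoded by Srebf1 and Srebf2, drive most of these genes when sterols in the endoplasmic reticulum are low. SCAP then escorts them to the Golgi for cleavage, and INSIG proteins hold SCAP back when sterols are plentiful. The liver X receptors (LXRs) answer high sterol with the opposite programme, raising the efflux transporters ABCA1 and ABCG1 and the ubiquitin ligase MYLIP. Smooth muscle cells of the artery wall can take up cholesterol and become foam cells, and efflux through ABCA1 is a known point of control in them.

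The promoters of 7 members are shown because 5 belong to enzymes that rose and 2 to regulators that fell. RefSeq promoter windows of 300 bases (build GRCm38.p6, the same assembly as mm10), from 250 bases before the annotated start to 50 after, were given for 26 of the 33 genes, 34 windows in all. Each stretch printed is the 250 bases before the annotated start of its window on the gene's own strand. Capitals mark matches to 3 motifs searched on both strands. These were the sterol regulatory element TCACNCCAC to which SREBPs bind, the E-box CACGTG to which CLOCK:BMAL1 and SREBPs can bind, and the CCAAT box to which the SREBP partner NF-Y binds. The stretch of Hmgcs1 lies at chr13:119690101-119690350 (plus strand), that of Idi1 at chr13:8885356-8885605 (plus), that of Mvk at chr5:114444019-114444268 (plus) and that of Nsdhl at chrX:72918271-72918520 (plus). Those of Hsd17b7 and Insig2 lie at chr1:169969206-169969455 and chr1:121332590-121332839 (both minus), and that of Scap at chr9:110333106-110333355 (plus). Insig2 and Scap have 3 and 2 windows, and the window with most matches is shown. The stretches of Mvk, Hsd17b7, Insig2 and Scap reach into the coordinates of the whole gene, so part of each lies inside the gene. The Scap E-box, 40 bases before the start shown, is at position 29 after the start of its other window.
Hmgcs1: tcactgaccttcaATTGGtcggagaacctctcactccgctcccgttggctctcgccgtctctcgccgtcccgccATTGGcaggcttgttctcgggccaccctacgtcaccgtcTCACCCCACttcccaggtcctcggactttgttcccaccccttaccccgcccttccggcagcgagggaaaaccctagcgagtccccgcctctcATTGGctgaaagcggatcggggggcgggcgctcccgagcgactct
Idi1: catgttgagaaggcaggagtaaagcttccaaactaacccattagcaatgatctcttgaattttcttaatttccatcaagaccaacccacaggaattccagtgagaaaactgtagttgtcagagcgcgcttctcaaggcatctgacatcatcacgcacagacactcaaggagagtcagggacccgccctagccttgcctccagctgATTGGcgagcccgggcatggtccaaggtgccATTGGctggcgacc
Mvk: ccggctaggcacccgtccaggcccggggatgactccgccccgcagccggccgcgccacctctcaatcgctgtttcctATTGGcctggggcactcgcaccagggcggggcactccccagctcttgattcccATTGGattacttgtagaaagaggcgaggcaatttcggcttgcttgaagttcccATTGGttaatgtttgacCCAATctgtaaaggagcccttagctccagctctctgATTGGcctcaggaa
Nsdhl: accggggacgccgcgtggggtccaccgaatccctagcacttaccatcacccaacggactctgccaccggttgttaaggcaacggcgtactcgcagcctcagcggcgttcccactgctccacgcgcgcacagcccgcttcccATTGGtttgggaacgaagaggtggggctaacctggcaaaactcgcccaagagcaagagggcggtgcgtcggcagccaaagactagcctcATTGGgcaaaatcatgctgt
Hsd17b7: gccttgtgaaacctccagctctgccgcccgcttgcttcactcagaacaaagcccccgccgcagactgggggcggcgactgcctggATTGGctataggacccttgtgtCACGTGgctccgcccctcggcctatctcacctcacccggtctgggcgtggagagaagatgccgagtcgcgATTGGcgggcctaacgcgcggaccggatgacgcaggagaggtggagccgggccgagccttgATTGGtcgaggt
Insig2: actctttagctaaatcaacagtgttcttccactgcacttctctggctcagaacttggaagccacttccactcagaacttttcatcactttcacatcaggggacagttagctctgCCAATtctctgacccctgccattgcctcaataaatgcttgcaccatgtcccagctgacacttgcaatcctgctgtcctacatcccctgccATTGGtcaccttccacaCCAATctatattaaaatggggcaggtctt
Scap: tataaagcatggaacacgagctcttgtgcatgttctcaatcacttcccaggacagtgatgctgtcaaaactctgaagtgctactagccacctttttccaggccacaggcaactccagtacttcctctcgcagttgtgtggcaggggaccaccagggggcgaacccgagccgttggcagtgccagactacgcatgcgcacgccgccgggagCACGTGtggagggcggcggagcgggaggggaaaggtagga

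The 9-base sterol regulatory element was found in 1 member, Hmgcs1, starting 137 bases before the start, against 388 (1.44%) of all genes with a window. CCAAT boxes were common: 21 of the 26 members (80.8%) had at least 1, against 41.1% of all genes. They were present in 11 of the 12 members with a window that rose in the libraries labelled Bmal1 KO, in 2 of 4 that fell and in 8 of 10 that did not pass. The Mvk stretch carries 4 ATTGG matches (the CCAAT box on the other strand) at a constant spacing of 53 bases. The 53-base stretches that begin at neighbouring matches share only 14 to 17 bases, the bases of the match itself included. An E-box was found in 6 members (23.1%, against 8.09% of all genes), namely Hsd17b7, Abca1, Insig1, Dhcr7, Sc5d and Scap. Of these, Hsd17b7 rose, Abca1, Dhcr7 and Scap fell, and Insig1 and Sc5d did not pass the test. These matches describe the letters in the windows and are not evidence of binding.

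Reads assigned to genes ran from 32503525 to 44657471 per library. The table holds normalized read counts, that is reads divided by a size factor per library, and all levels below are in that unit, with ± giving the SD (n = 3 libraries). Arntl did not fall with the label: it stood at 579 ± 45.7 in WT and 1005 ± 54.9 in the libraries labelled Bmal1 KO. Whole-gene counts cannot show a missing exon, so each direction is stated for the libraries as labelled. The groups also differed in Xist, the RNA of the inactive X chromosome, at 12.4 to 89.9 in WT and 3842 to 3887 in the libraries labelled Bmal1 KO. Xist was thus low in every WT library and high in every library labelled Bmal1 KO. Whatever goes with Xist, the sex of the mice included, cannot be told apart from the label here. The part of Xist in any result below was not tested. Smooth muscle markers were present in both groups, with summed levels of 28537 to 32638 in WT and 99811 to 108137 in the others. All 6 rose, against 36.2% of all genes tested, with Acta2 the most abundant and Myh11 (35.9 ± 28.3 in WT, 274 ± 16.3) the least.

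Across the 33 genes, 15 were higher and 5 lower under the Bmal1 KO label, while 13 did not pass the test (limma on log2(normalized count + 1), Benjamini-Hochberg adjusted p under 0.05 over all 16086 genes tested). All 33 passed the filter on low values. Among all genes tested, 71.1% were called, 36.2% higher and 34.9% lower, against 60.6% of the members, 45.5% higher and 15.2% lower. The 3 libraries of a group did not overlap those of the other in 22 of the 33 members (66.7%), against 76.7% of all genes. At 2-fold or more, 9 members rose (27.3%, against 20.6% of all genes) and 1 fell (3.03%, against 12.8%). The median log2 fold change was 0.14 over the members and -0.012 over all genes tested. In whole cultures, fewer cells of a type and less RNA per cell cannot be told apart. The widest rise, of Stard4, was larger than 89.2% of the differences of all genes, and 8.70% of all genes had a more negative value than Insig2, the deepest fall.

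**Figure D1:**
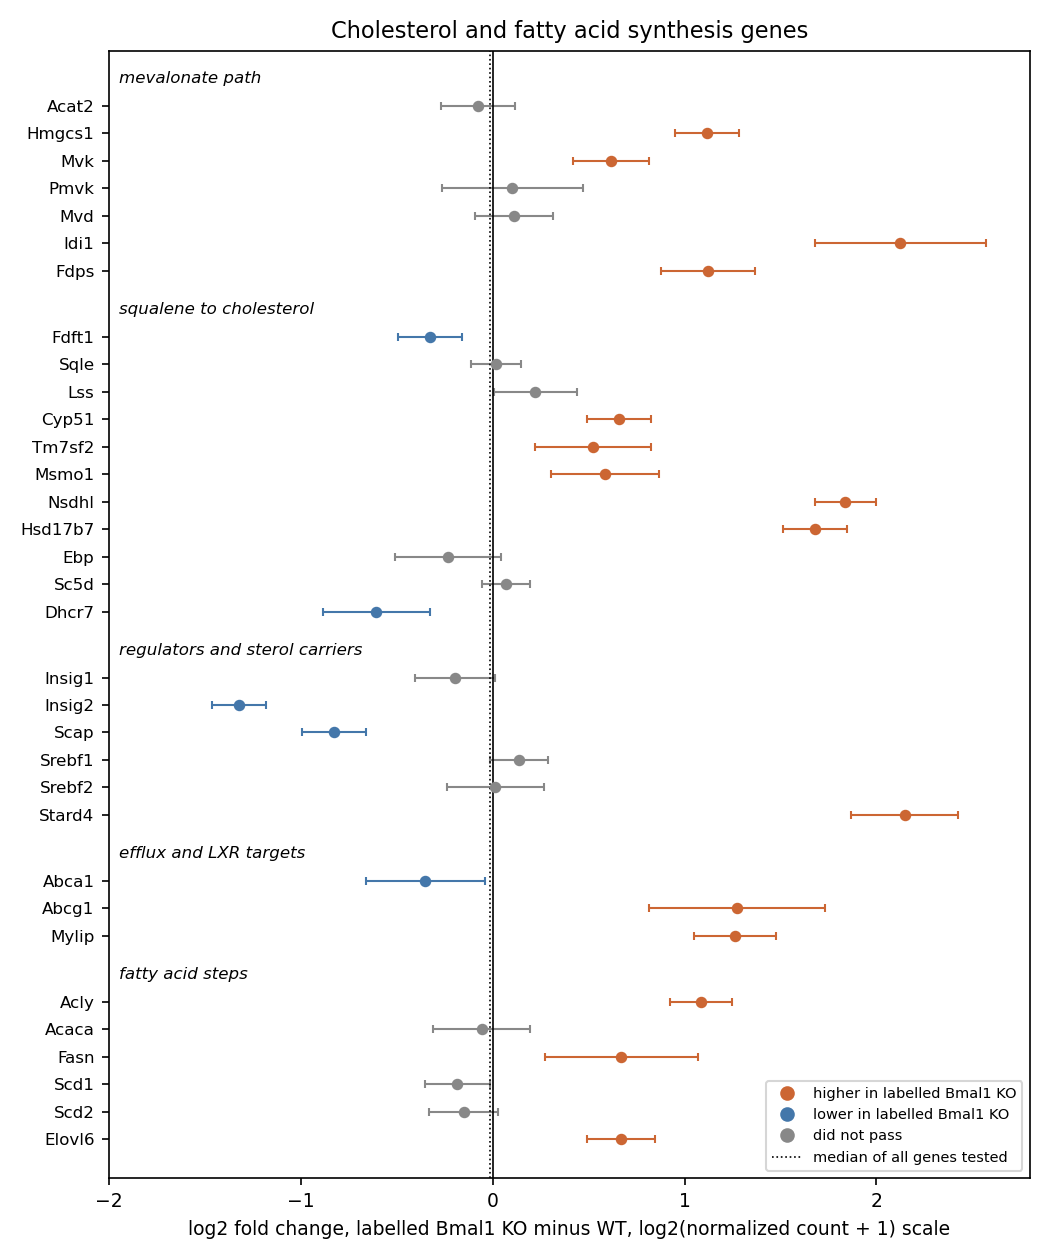
Log2 fold change (libraries labelled Bmal1 KO minus WT, on the log2(normalized count + 1) scale) of the 33 genes by role, with 95% confidence intervals from limma, n = 3 libraries per group; the dotted line is the median of all 16086 genes tested. The 15 genes that rose run from 0.52 (Tm7sf2) to 2.15 (Stard4) and the 5 that fell from -0.33 (Fdft1) to -1.32 (Insig2).

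The sterol path was higher at some enzymes and not at others. Of the 18 steps, 9 rose and 2 fell, which left 7 that missed the threshold (median log2 fold change 0.37). The share called was 61.1%, below the 71.1% of all genes tested. By direction, 50.0% rose against 36.2% of all genes, and 11.1% fell against 34.9%. In the mevalonate stage, from acetyl-CoA to farnesyl pyrophosphate, 4 of 7 rose (57.1%, median 0.62). None of the 7 fell with limma, at an unadjusted p under 0.05 either, or with edgeR or DESeq2. From squalene to cholesterol, 5 of 11 rose (45.5%) and 2 fell (18.2%). The median was 0.22, which was -0.015 after removal of a trend with transcript length and GC share. The enzymes that rose at least 2-fold were Hmgcs1, Idi1 and Fdps early in the path and Nsdhl and Hsd17b7 late in it, while Sqle, which encodes the rate-controlling squalene epoxidase, did not pass.

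Acat2, which encodes a cytosolic thiolase that joins acetyl-CoA units, was at 1165, 1075 and 1059 in WT replicates 1, 2 and 3 and at 1128, 978 and 1025 in replicates 1, 2 and 3 labelled Bmal1 KO. The groups overlapped, and the 95% interval of the log2 fold change ran from -0.27 to 0.11. Hmgcs1 (chromosome 13, 119690351 to 119708260), which encodes HMG-CoA synthase, was at 1661, 1462 and 1546 in WT and at 3193, 3412 and 3528 in the libraries labelled Bmal1 KO. All 3 of the latter lay above all WT libraries, a 2.17-fold rise (log2 fold change 1.12, SE 0.0723, limma adjusted p = 6.48e-06). Mvk, the gene of mevalonate kinase, went from 963, 843 and 809.5 in WT to 1341, 1378 and 1281. It rose 1.53-fold with no overlap (adjusted p = 0.00039). The next kinase gene, Pmvk, was at 548, 405 and 382 in WT and 514, 415 and 492 in the libraries labelled Bmal1 KO. These overlapped, with an interval of -0.26 to 0.47. Mvd, whose product decarboxylates mevalonate pyrophosphate, was at 1019, 1037 and 879 against 1019, 1111 and 1033. It did not pass either, with an interval of -0.09 to 0.32.

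Idi1 (chromosome 13, 8885606 to 8892396), the isopentenyl pyrophosphate isomerase gene, had 117, 75.5 and 108 normalized counts in WT and 388, 429 and 487 in the libraries labelled Bmal1 KO. This was the widest rise among the enzymes, 4.34-fold (log2 fold change 2.12, SE 0.193, adjusted p = 3.83e-05), from 336 reads in WT and 1165 in the other group. Fdps (chromosome 3, 89093588 to 89101967), which encodes farnesyl pyrophosphate synthase, stood at 984, 769.5 and 769.9 in WT and at 1834, 1747 and 1884. It rose 2.17-fold without overlap (log2 fold change 1.12, SE 0.107, adjusted p = 4.88e-05).

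Fdft1, the squalene synthase gene at the branch from farnesyl pyrophosphate to sterols, moved the other way from Fdps. Its counts were 2989.9, 2746 and 2597 in WT and 2122, 2310.4 and 2204 in the libraries labelled Bmal1 KO, all below WT, a 1.26-fold fall (log2 fold change -0.33, adjusted p = 0.00417). Exons of Fdft1 overlap those of Ctsb on the opposite strand by up to 774 bases, and the strand setting of the counting is not given in the sources used here, so its level is uncertain. Sqle was nearly level, at 3144, 2959.6 and 3007 in WT and 3009, 3145 and 3074, with a narrow interval of -0.11 to 0.15. Lss, the lanosterol synthase gene, had counts of 836, 984 and 891 against 984, 1029.9 and 1148. The groups met near 984, and the difference narrowly missed the threshold (log2 fold change 0.22, adjusted p = 0.0636).

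The 5 of 11 genes from squalene to cholesterol that rose (45.5%, against 36.2% of all genes tested) all encode enzymes that act after lanosterol. They were Cyp51, Tm7sf2, Msmo1, Nsdhl and Hsd17b7. Cyp51, the lanosterol demethylase gene, was at 2157, 1858 and 1893 in WT and at 3097, 3107 and 3092 in the libraries labelled Bmal1 KO, 1.57-fold higher (adjusted p = 0.000105). Tm7sf2, a sterol reductase gene, went from 202, 228 and 189 to 283, 324 and 281, or 1.44-fold (adjusted p = 0.00766). Lbr, a gene of the related trafficking list whose product can reduce the same sterol bond, went the other way, from 1522 ± 48.0 to 1293 ± 15.7 (adjusted p = 0.00962). It was named after its values were seen, and per kilobase its WT level of 434 was above that of Tm7sf2. Msmo1, which starts the removal of the methyl groups at carbon 4, was at 3018, 2114 and 2375 in WT, replicate 1 being the highest, and reached 3754, 3589.7 and 3811, or 1.49-fold (adjusted p = 0.00303). Its partners in that removal moved more. Nsdhl (chromosome X, 72918521 to 72958528) went from 485, 502 and 485 to 1809.8, 1719 and 1744, a 3.58-fold rise against an SD of 9.49 in WT and 46.7 in the other group (log2 fold change 1.84, SE 0.0683, adjusted p = 3.57e-07). Hsd17b7 (chromosome 1, 169949535 to 169969242) went from 515, 494 and 542 to 1699.7, 1617 and 1656, a 3.21-fold rise (log2 fold change 1.68, SE 0.0728, adjusted p = 7.71e-07). Exons of Cyp51 overlap those of the protein-coding gene Akap9 on the opposite strand by up to 166 bases. Exons of Tm7sf2 overlap those of the protein-coding gene Vps51 on the same strand by up to 532 bases. Those of Fdps overlap the gene model Gm43738 on the same strand by 197 bases. Those of Hmgcs1, Idi1 and Scap overlap models on the opposite strand by 458, 323 and 327 bases. Opposite-strand overlaps carry the same uncertainty as that of Fdft1, while same-strand overlaps leave reads ambiguous under any strand setting.

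The last steps did not share this rise. Ebp, the sterol isomerase gene, was at 1786, 1472 and 1324 in WT and 1350.2, 1354 and 1174 in the libraries labelled Bmal1 KO, which overlap (interval of the log2 fold change -0.51 to 0.04). Sc5d, the sterol desaturase gene, was at 2352, 2299 and 2348 against 2423, 2417 and 2504. These groups did not overlap, but the difference of 1.05-fold did not pass (interval -0.06 to 0.20, adjusted p = 0.282). Dhcr7, which encodes a final reductase of cholesterol synthesis, was lower, from 479.7, 549.8 and 548 to 328, 393 and 316, a 1.52-fold fall (log2 fold change -0.61, SE 0.12, adjusted p = 0.00243). Nsdhl and Ebp are both X-linked, and the groups differ in Xist as given above. Of 520 X-linked genes tested, 49.6% rose and 20.4% fell, and their median log2 fold change was 0.29. The log2 fold change was 1.84 for Nsdhl and -0.23 for Ebp. The part of the X chromosome in either value was not tested.

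**Figure D2:**
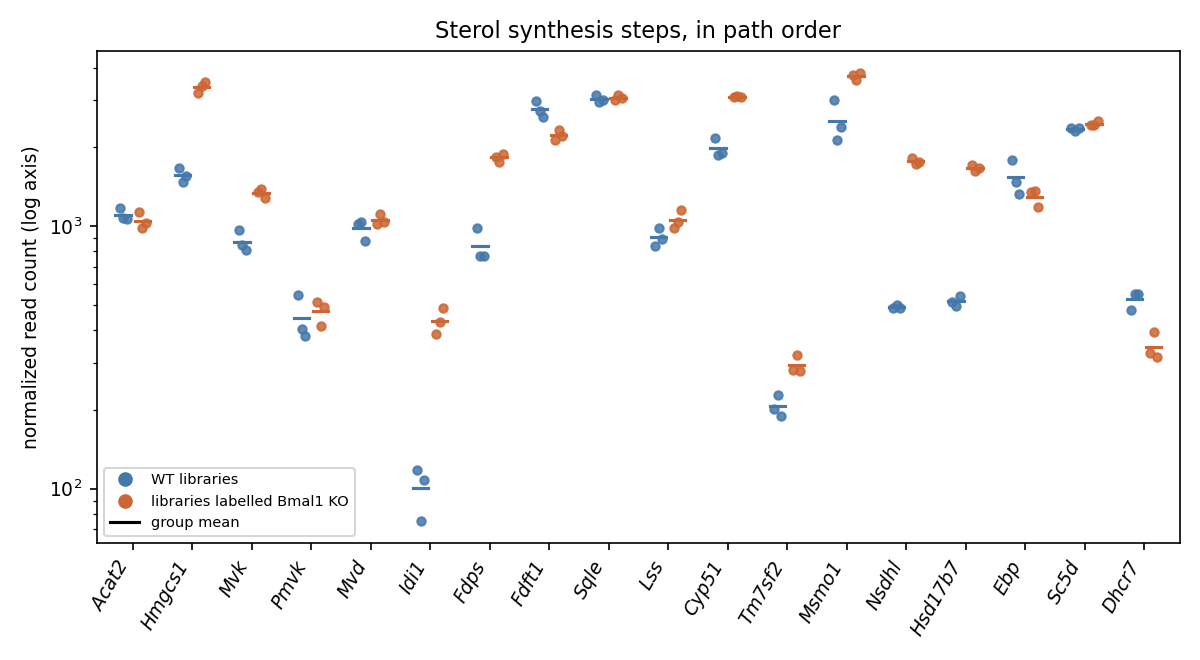
Normalized read counts (log axis) of the 18 sterol synthesis genes in path order, with each of the 3 WT and 3 labelled Bmal1 KO libraries as a point and group means as bars. Hmgcs1, Idi1, Fdps, Nsdhl and Hsd17b7 show groups far apart, Sqle and Sc5d lie nearly level, and Fdft1 and Dhcr7 lie lower than in WT.

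Among the regulators and carriers, Insig2 and Scap fell, Stard4 rose, and Insig1, Srebf1 and Srebf2 did not pass. Insig2 (chromosome 1, 121304353 to 121332662) was at 4258, 3962 and 3887 in WT and at 1629, 1602 and 1606 in the libraries labelled Bmal1 KO. This was the only fall of 2-fold or more among the 33 genes, 2.50-fold (log2 fold change -1.32, SE 0.0602, adjusted p = 9.93e-07). Its paralog Insig1, itself a classic SREBP target, was at 1448, 1452 and 1549 against 1189, 1248 and 1456. The groups overlapped and the difference did not pass (log2 fold change -0.20, interval -0.40 to 0.01, adjusted p = 0.0793). Per kilobase of the longest annotated transcript, the ratio of Insig2 to Insig1 was 2.94, 2.73 and 2.51 in WT and 1.37, 1.28 and 1.10 in the other libraries. Scap (chromosome 9, 110333288 to 110384949), the escort of the SREBPs, went from 9791, 11133 and 9769 to 5539, 5994 and 5728, a 1.78-fold fall without overlap (log2 fold change -0.83, SE 0.0722, adjusted p = 3.11e-05).

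Srebf1 was at 4811, 5038 and 4479 in WT and 5038, 5367 and 5329 in the libraries labelled Bmal1 KO, with an interval of -0.02 to 0.29 on the log2 scale. Gene counts do not separate its SREBP-1a and SREBP-1c transcripts. Srebf2, which encodes the factor most tied to cholesterol genes, was at 5444, 7254 and 6410.0 against 5952, 6831 and 6419, with an interval of -0.24 to 0.27. Neither transcript passed the test, and the amount of cleaved SREBP protein was not measured. Stard4, which encodes a cytosolic sterol carrier, rose most of all 33 genes, from 276, 369 and 287 to 1376, 1348 and 1385. That is 4.41-fold (log2 fold change 2.15, SE 0.12, adjusted p = 2.94e-06), and the libraries labelled Bmal1 KO had an SD of 19.3 around their mean of 1369.

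The efflux and LXR target genes did not move together. Abcg1, a transporter that passes cholesterol to high-density lipoprotein, was low in WT at 158, 95.4 and 141 and stood at 299.6, 306 and 332 in the libraries labelled Bmal1 KO, 2.38-fold higher (log2 fold change 1.27, SE 0.198, adjusted p = 0.000686). Mylip, whose product marks lipoprotein receptors for degradation, went from 313, 283 and 301 to 703, 699 and 751, or 2.40-fold (log2 fold change 1.26, SE 0.0921, adjusted p = 1.21e-05). Abca1, which loads cholesterol onto apolipoprotein A-I, was at 2626, 3564 and 3565 in WT and 2507, 2810.4 and 2273 in the others, with WT replicate 1 inside the range of the libraries labelled Bmal1 KO. It passed the test as 1.29-fold lower (log2 fold change -0.35, adjusted p = 0.0437). The call was lost when WT replicate 2 was left out (adjusted p = 0.115), and likewise for WT replicate 3 (0.142) and for replicates 1 (0.0969) and 3 (0.146) of the other group. Upper-quartile scaling also ended it (adjusted p = 0.0798). After removal of the trend that log2 fold changes followed with transcript length and GC share, its value was -0.77.

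Fatty acid synthesis rose at 3 of 6 genes, and none fell by the same test. The share called was thus 50.0%, against 71.1% of all genes tested. Acly, whose product makes cytosolic acetyl-CoA from citrate for both paths, was at 8807, 10152 and 9582 in WT and at 19976, 20179 and 20399 in the libraries labelled Bmal1 KO. It rose 2.12-fold (chromosome 11, 100476352 to 100528000, log2 fold change 1.09, SE 0.0699, adjusted p = 6.25e-06). Acaca, the acetyl-CoA carboxylase gene that commits acetyl-CoA to fatty acids, was at 1500.4, 1961 and 1879 against 1672, 1813 and 1616. The latter lay inside the WT range (interval -0.31 to 0.19). Fasn, the fatty acid synthase gene, was at 6545, 10762 and 9545 in WT and 12823, 15221 and 13912, 1.56-fold higher (log2 fold change 0.67, SE 0.172, adjusted p = 0.00851). WT replicate 1 was the lowest, and without it the log2 fold change was 0.46. With the length and GC trend removed it was 0.26.

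Elovl6, which lengthens palmitate, went from 586, 624 and 636 to 953, 966 and 1013, or 1.59-fold (adjusted p = 0.000136). The stearoyl-CoA desaturases, which make monounsaturated fatty acids, did not pass. Scd1 was at 6924, 8178 and 7656 in WT and 6660.3, 6858 and 6471 in the libraries labelled Bmal1 KO, without overlap but with a difference of 1.14-fold (log2 fold change -0.18, adjusted p = 0.053). Scd2 was at 12084, 13772 and 13958 against 11242, 12298 and 12247 (interval -0.33 to 0.03). The ratio of Scd2 to Scd1 per kilobase was alike in the groups, 1.55 ± 0.0618 in WT and 1.59 ± 0.0906 in the others. The count of 0 falling genes with limma was 1 (Scd1) at an unadjusted p under 0.05, and edgeR and DESeq2 each called Scd1 lower (adjusted p = 0.0404 and 0.0413). Without WT replicate 1, and also without the length and GC trend, 3 of the 6 fell, namely Acaca, Scd1 and Scd2.

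**Figure D3:**
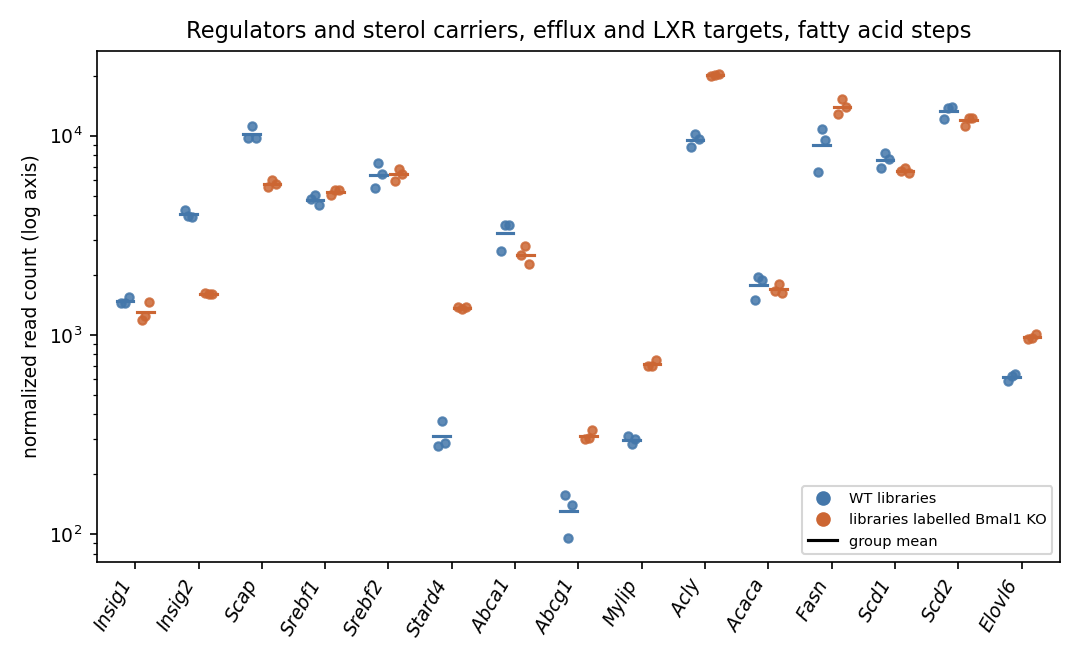
Normalized read counts (log axis) of the 6 regulators and sterol carriers, 3 efflux and LXR target genes and 6 fatty acid genes, each library as a point (3 WT, 3 labelled Bmal1 KO) and group means as bars. Stard4, Abcg1, Mylip, Acly and Elovl6 lie higher and Insig2 and Scap lower than in WT, and the low Fasn, Acaca and Abca1 points of WT are all replicate 1.

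Levels per kilobase of transcript, which allow genes to be set side by side, placed the abundant transcripts in fatty acid synthesis and control. In WT the highest were Scd2 (2433 normalized counts per kilobase), Scap (2420.4), Acly (2149.5), Scd1 (1570.0) and Insig2 (1496), and the lowest were Abcg1 (22.5) and Idi1 (33.1). In the libraries labelled Bmal1 KO, Acly was highest at 4560.4, followed by Scd2 (2187) and Fasn (1392), and Insig2 stood at 598. Of the 9 genes that rose at least 2-fold, all but Acly stood between 22.5 (Abcg1) and 449 (Hmgcs1) per kilobase in WT. Levels rest on the longest transcript in the annotation, which may not be the form these cells use.

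**Figure D4:**
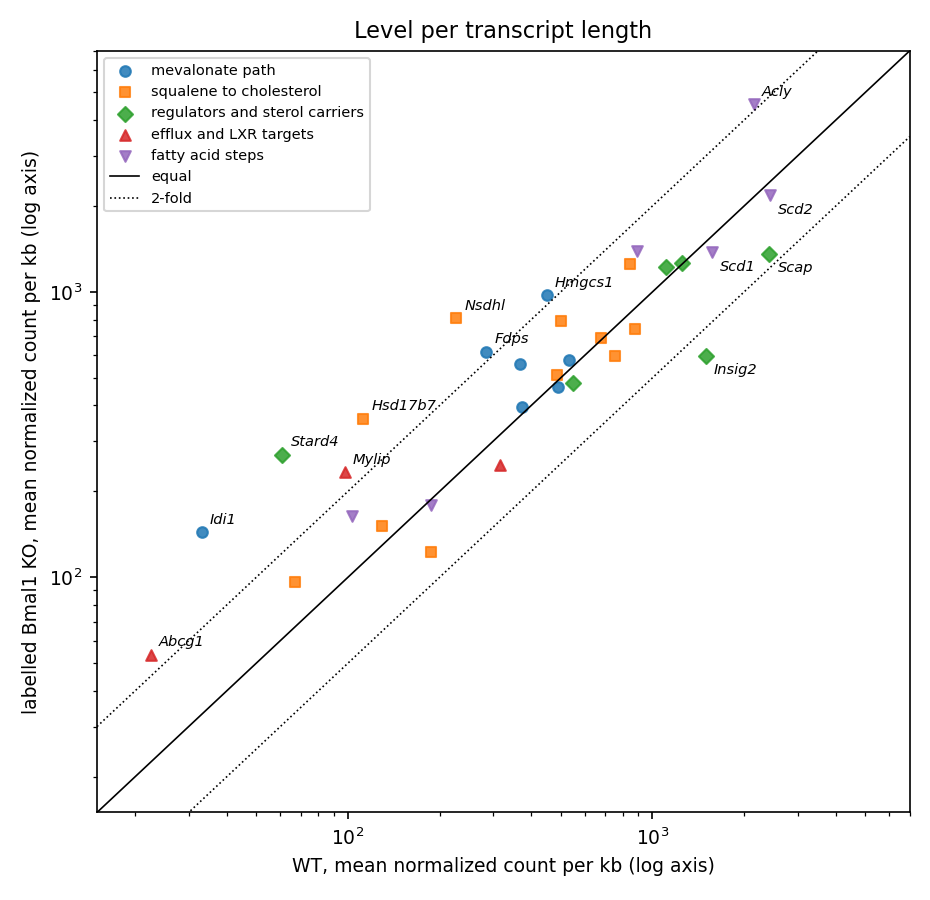
Mean normalized count per kilobase of the longest annotated transcript in WT (x axis) and in the libraries labelled Bmal1 KO (y axis), both log axes, for the 33 genes by role; the solid line marks equal levels and the dotted lines 2-fold differences. Idi1, Stard4, Nsdhl and Hsd17b7 lie farthest above the line of equal levels and Insig2 farthest below it.

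Further genes of lipid metabolism were examined in 3 lists holding 61 genes, of which 17 rose and 26 fell (median log2 fold change -0.042). The share called was 70.5%, near the 71.1% of all genes, and by list it was 78.3% for the other lipogenic genes, 62.5% for sterol sensing and trafficking and 71.4% for the isoprenoid branches. Of 23 other lipogenic genes, 8 rose and 10 fell. Those with the smallest adjusted p were Fads3, a gene of the fatty acid desaturase family (from 3552 ± 215 to 7040 ± 99.4, adjusted p = 5.85e-06), Hsd17b12, a fatty acid elongation reductase (from 3582 ± 234 to 6545 ± 84.1, adjusted p = 1.23e-05), and Acsl4, which activates polyunsaturated fatty acids (from 3535 ± 97.3 to 5407 ± 207, adjusted p = 4.79e-05). Each of these rose without overlap. Acsl4 is X-linked, and 49.6% of the X-linked genes tested rose. The part of the X chromosome in its value was not tested.

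Of 24 genes of sterol sensing and trafficking, 4 rose and 11 fell, and the strongest changes were in oxysterol enzymes and a sterol carrier. Ch25h, which makes 25-hydroxycholesterol, was at 266, 268 and 269.8 in WT and at 1859.7, 1855 and 1838 in the libraries labelled Bmal1 KO, 6.91-fold higher (log2 fold change 2.78, SE 0.072, adjusted p = 6.47e-08). Cyp7b1, which hydroxylates that oxysterol further, went from 1270.2, 1111 and 1094 to 122, 140.3 and 128, 8.90-fold lower (log2 fold change -3.14, SE 0.11, adjusted p = 2.76e-07). Stard5, a relative of Stard4, fell 3.81-fold, from 2067 ± 75.9 to 542 ± 20.2 (adjusted p = 3.26e-07), against the 4.41-fold rise of Stard4. Of 14 genes in the isoprenoid branches that leave the mevalonate path, 5 rose and 5 fell. Both subunits of the enzyme that prenylates Rab proteins fell, Rabggtb from 3029 ± 425 to 1232 ± 21.7 (adjusted p = 1.54e-05) and Rabggta from 1565 ± 131 to 698 ± 46.6 (adjusted p = 1.56e-05). Zmpste24, a protease for prenylated proteins, rose from 2690.3 ± 166 to 4479 ± 105 (adjusted p = 3.32e-05).

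Markers of other cells were measured beside these genes, and each list's genes of highest and lowest mean over all 6 libraries are named. Of 6 adipocyte markers, Lep had no reads in any library, Adipoq, Plin1, Cidec and Cfd stayed below 10 normalized counts in every library, and Fabp4, which other cells also express, rose from 1564 ± 342 to 5203 ± 810. The summed adipocyte level was therefore mostly that of Fabp4, 1289 to 1954 in WT and 4729 to 6153 in the libraries labelled Bmal1 KO. Of 6 macrophage markers, 5 rose and 1 fell, with sums of 559 to 685 in WT and 1183 to 1293, from Csf1r (216 ± 32.8 and 893 ± 14.6) down to Adgre1 (10.2 ± 3.56 and 32.9 ± 4.73). The marker that fell was Cd68, the most abundant of them in WT, from 348 ± 54.3 to 74.0 ± 13.4 (adjusted p = 2.74e-05). Of 6 endothelial markers, 5 rose, with sums of 327 to 460 and 776 to 1052, from Vwf (191 ± 24.6 and 275 ± 8.999) to Emcn (7.91 ± 1.83 and 44.2 ± 10.8). Of 6 fibroblast markers, 4 rose and 2 fell, with sums of 16235 to 17829 and 29463 to 32381, from Pdgfra (10681 ± 916 and 12442 ± 547) to Pi16 (62.6 ± 6.44 and 38.4 ± 6.34). Those that fell were Pi16 and Col14a1 (2484.5 ± 295 and 749 ± 16.3), and Ly6a was the most abundant in the libraries labelled Bmal1 KO (3336 ± 346 in WT and 16628 ± 1159.7 there). Among all genes tested, 36.2% were higher and 34.9% lower. The part of these cells in the differences above was not tested.

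**Figure D5:**
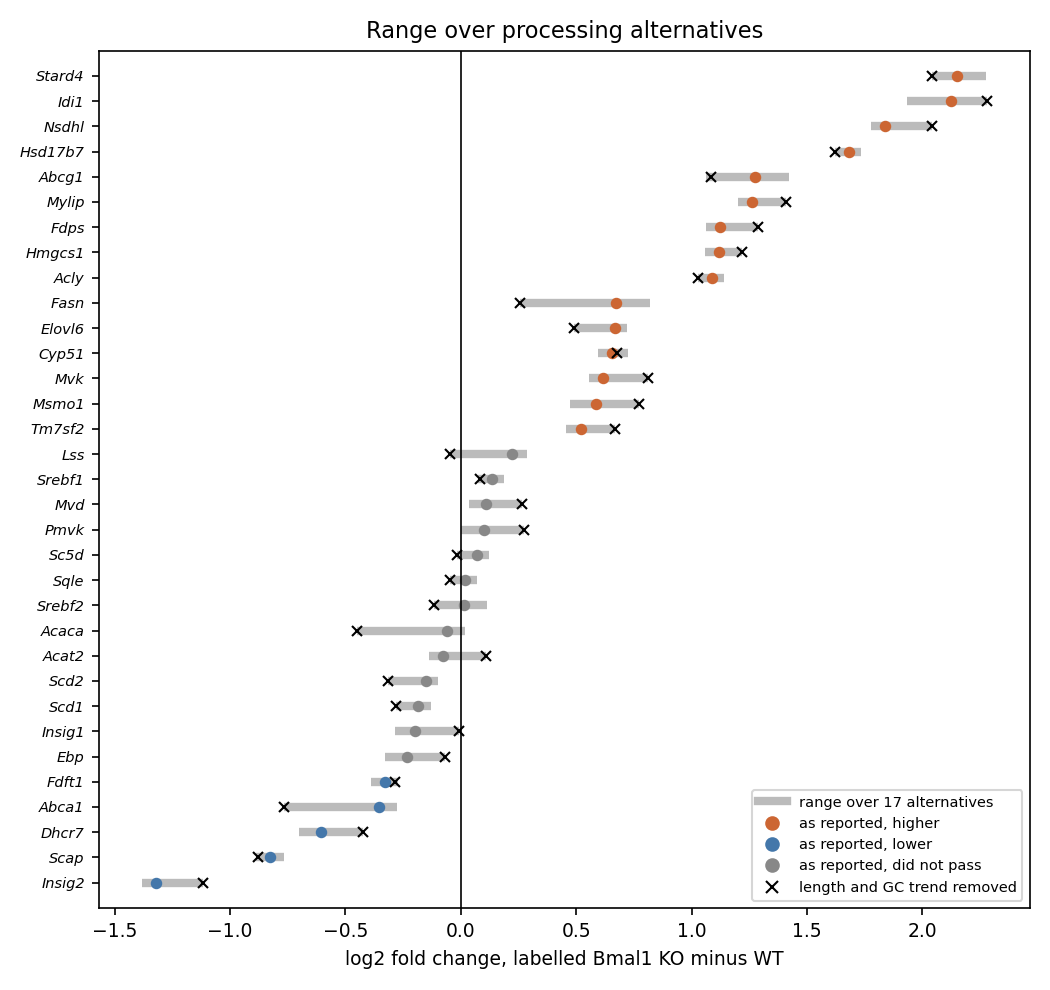
Log2 fold change (libraries labelled Bmal1 KO minus WT) of each gene as reported (coloured point), its range over 17 processing alternatives (grey bar) and its value with the transcript length and GC trend removed (cross). The 15 genes that rose stay above 0 and the 5 that fell stay below 0 in every alternative, and the lower ends of the Fasn and Abca1 bars are their length and GC values.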

How the data were processed

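The authors deposited 1 table of 27179 genes by NCBI Gene ID, whose unit is signal: for each library, normalized read counts. The submitters' processing notes list Trimmomatic, HISAT2, featureCounts and mm10, with no role or version. The annotation used, and the strand setting, were not given in the sources used here. Dividing by the smallest step of a library gave whole numbers throughout (100% within 0.01), so reads were recovered, and the implied factors equalled median-ratio size factors. Libraries were made from polyadenylated RNA with a stranded kit, per the labels' protocols. All 6 share a batch label, and 0 value columns stayed unmapped.

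Group was the only term in limma (eBayes with trend) on log2(value + 1), over genes reaching 10 normalized counts in 3 or more libraries, with Benjamini-Hochberg adjustment. Every adjusted p is from limma unless another tool is named. Fold changes on that scale understate changes of low genes, and folds are ratios of mean normalized counts. Median-ratio scaling rests on the typical gene being level between groups, while 71.1% of genes were called. Alternatives were edgeR, DESeq2 and voom on recovered reads (edgeR called 5588 genes higher and 5891 lower), 2 scalings, 2 pseudocounts, 2 filters, the replicate block, each library left out, and removal of a length and GC trend (14872 genes, longest GENCODE M21 transcript). The limma and edgeR scripts were tested on simulated data. The tools were DESeq2 1.42.0, edgeR 4.0.16 and limma 3.58.1 under R 4.3.3.

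The members and lists were chosen with earlier results of these data known. All members were named, with the 3 related genes of smallest adjusted p per list and the markers with the highest and lowest mean over all libraries per cell type (Cd68, Col14a1, Ly6a and Lbr were added after their values were seen). Coordinates are whole RefSeq genes, counted from 1. Each pair of replicates within a group differed beyond sampling noise (chi-square per degree of freedom 10.1 to 71.6).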

Additional observations from a re-analysis of the deposited data

How the results depend on the processing

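Over 17 alternatives no call of a member turned direction, and 19 of the 33 members kept direction and side of the threshold in each. The number of members called lower, 5, was 8 with TMM scaling, with the replicate block and after removal of the length and GC trend, and ran from 4 to 8 when libraries were left out, 8 being without WT replicate 1. Fatty acid genes called lower, 0 as reported, were 1 with edgeR, DESeq2, voom and the replicate block, 2 with TMM scaling, 3 without the length and GC trend, and from 0 to 3 when libraries were left out, 3 again without WT replicate 1 (Acaca, Scd1 and Scd2). Other counts of members by role moved by at most 1.5 times. Without the length and GC trend, sterol sensing and trafficking genes called higher went from 4 to 7, and the median log2 fold change went from 0.14 to 0.26 over the members, from 0.22 to -0.015 over squalene to cholesterol and from -0.042 to 0.01 over the related genes. Signs of single members turned only for genes that did not pass. Without the length and GC trend the log2 fold changes were 0.11 for Acat2, -0.047 for Sqle, -0.048 for Lss, -0.015 for Sc5d and -0.12 for Srebf2. With edgeR, voom and TMM scaling they were -0.012, -0.012 and -0.042 for Sqle and -0.025, -0.016 and -0.046 for Srebf2. Left-out libraries gave a range of -0.094 (without WT replicate 1) to 0.11 for Srebf2, which also turned without labelled Bmal1 KO replicate 2 (-0.033), and of -0.18 (without WT replicate 1) to 0.017 (without WT replicate 2) for Acaca. The cause was not tested. Replicate numbers showed no sign of pairing the samples. Deviations of same-numbered libraries correlated at -0.004, 0.026 and 0.084, against -0.131 to 0.094 for libraries with different numbers. The replicate block added calls for Ebp (adjusted p = 0.0373), Insig1 (adjusted p = 0.0469) and Scd1 (adjusted p = 0.0399), giving 15 members higher and 8 lower. The number of libraries, 3 per group, limits what small differences can show.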
